A study of Mus musculus with 12 samples.

Results

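The genes described here are ligands of the transforming growth factor beta (TGF-beta) superfamily and Smad7, the inhibitory Smad that the pathway induces in its own target cells. They are Tgfb1, Tgfb2 and Tgfb3 (the TGF-beta isoforms), Inhba and Inhbb (the activin subunits), Gdf15, Bmp4, Bmp10, Mstn (myostatin) and Smad7. These 10 of the 23337 genes in the tables were chosen by symbol, as ligands with counts in these cardiomyocytes, with earlier results of the same data known. The level of a member is therefore a description, and Inhba, which had already been singled out for its neonatal change, is given without a test there. RNA was sequenced from sorted mouse cardiomyocytes (CMs, the muscle cells of the heart) in 4 groups of 3 samples. Every mouse had a fluorescent reporter at Rosa (Cas9GFP, tdTomato or mTmG, not given per sample) that needs Cre to be expressed, and every mouse received AAV9-cTNT-Cre, a virus in which the cardiac troponin T promoter drives Cre, at a low dose that reached a minority of CMs. Knockout (KO) mice were Srf-flox/flox, so Cre could delete both copies of Srf, which encodes the transcription factor SRF (serum response factor), in their CMs. Control (CTRL) mice were Srf-flox/+, so Cre could delete 1 copy and leave the other. Per the paper, most but not all fluorescent CMs of KO hearts lacked SRF, and the sorting of large CMs was likely imperfect. KO samples are therefore taken as mixtures that hold some CMs with SRF. Neonatal mice were injected at postnatal day (P) 1 and their fluorescent CMs sorted at P14, and adult mice were injected at P60 and theirs sorted at P90. The mice were of mixed background, and hearts were mosaic, so a KO CM lay among CMs that Cre had not reached.

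TGF-beta superfamily ligands are secreted dimers that bring together type I and type II receptor kinases on the target cell. TGF-beta isoforms, activins and myostatin signal through Smad2 and Smad3, BMPs through Smad1, Smad5 and Smad9, and both branches share Smad4. In the heart they are known for their part in fibrosis, growth and the response to stress, and TGF-beta isoforms leave the cell bound to latency proteins from which they must be released. RNA of a ligand says what a cell could secrete, and none of its active protein was measured here.

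Total counts per sample ranged from 9740389 to 23103460, and 3 counts, taken as the floor of detection, corresponded to 0.138 to 0.326 CPM (counts divided by sequencing depth, with TMM factors). Summed markers of CMs (Tnnt2, Myh6, Actn2, Ryr2, Tnni3 and Myl2) lay between 78280 and 89080 CPM in CTRL of both ages, between 58030 and 62390 in P14 KO and between 71590 and 74640 in P90 KO. Summed fibroblast markers (Col1a1 and the like) were 117 to 326 CPM in CTRL and 196 to 350 in KO at P14, and between 52.1 and 73.4 in P90 samples of either genotype, so RNA of other cell types was present at a low level. Srf, the deleted gene, was 64.0, 57.1 and 49.4 CPM in P14 CTRL and 32.1, 27.5 and 9.75 CPM in P14 KO, without overlap. It was 71.2, 59.1 and 81.1 CPM in P90 CTRL and 32.9, 28.9 and 28.1 CPM in P90 KO, again without overlap. The adult fall passed the test of edgeR (log2 fold change −1.23 ± 0.13 (SE), adjusted p = 0.00347), and the neonatal one did not at the threshold of 0.05 (−1.30 ± 0.36, adjusted p = 0.0628, n = 3 per group).

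The windows before the start sites of Tgfb2, Inhba and Tgfb1 are shown as a description. Of the members with enough counts, the first and second had the steepest neonatal change, while Tgfb1 lay near its CTRL level. They are the 250 bases upstream of the RefSeq start (GRCm38.p6, read 5′ to 3′ on the gene's strand), with TATAAA in capitals. RefSeq windows were found for 8 of the 10 members.
Tgfb2, chr1:186705990-186706239, minus strand: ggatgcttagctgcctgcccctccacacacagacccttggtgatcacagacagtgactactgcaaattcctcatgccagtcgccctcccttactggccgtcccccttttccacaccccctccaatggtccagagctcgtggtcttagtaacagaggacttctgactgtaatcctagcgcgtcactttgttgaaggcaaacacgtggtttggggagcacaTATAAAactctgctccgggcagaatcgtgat
Inhba, chr13:16011601-16011850, plus strand: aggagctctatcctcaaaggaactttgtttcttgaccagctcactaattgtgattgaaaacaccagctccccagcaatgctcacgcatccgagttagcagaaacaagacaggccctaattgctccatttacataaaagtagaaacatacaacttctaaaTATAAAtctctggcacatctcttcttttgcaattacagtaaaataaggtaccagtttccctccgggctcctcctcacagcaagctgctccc
Tgfb1, chr7:25686752-25687001, plus strand: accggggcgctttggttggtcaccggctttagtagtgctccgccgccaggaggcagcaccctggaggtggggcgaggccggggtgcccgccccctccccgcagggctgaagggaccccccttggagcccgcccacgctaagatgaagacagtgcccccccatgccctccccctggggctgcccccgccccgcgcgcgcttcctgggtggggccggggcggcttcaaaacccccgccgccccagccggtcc
TATAAA lay at bases −31 to −26 before the start of Tgfb2 and at −91 to −86 before that of Inhba, and Mstn held it at −29 to −24. Of 32851 mouse promoter windows of the same length, 12.4% held TATAAA on either strand. The Tgfb1 window had none and was 75.2% G and C, against 53.6% for Tgfb2 and 43.2% for Inhba. The windows of the matched members held no CArG box (the binding site of SRF, 1.47% of all windows), TGAGTCA (4.46%), TGACGTCA (1.55%), TGATGNAAN (3.44%) or GTCTAGAC (0.167%), searched on both strands, which says only that these letters are not in these bases. The RefSeq start of Inhba lies 2624 bases upstream of the first exon in the authors' tables, so its window belongs to an upstream exon that those tables do not list.

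The TGF-beta isoforms were examined first, since they are the best known ligands of the pathway. Tgfb2, at chr1:186623186-186705992 (mm10, minus strand), was 13.8, 11.1 and 10.5 CPM in P14 CTRL and 44.7, 44.0 and 53.3 CPM in P14 KO. At P90 it was 5.36, 6.63 and 5.22 CPM in CTRL and 7.48, 6.23 and 7.14 CPM in KO. Every P14 KO sample lay above every other sample, P14 CTRL came next, and the P90 groups overlapped. Tgfb2 was up-regulated in neonatal KO CMs by 2.0 ± 0.15 on the log2 scale, a 4.0-fold change (edgeR, adjusted p = 0.00170, n = 3 per group). In adult KO CMs its log2 fold change was 0.29 ± 0.18 (adjusted p = 0.447).

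Tgfb3, at chr12:86056743-86079041 (minus strand), was 12.4, 7.40 and 7.66 CPM in P14 CTRL and 23.09, 19.9 and 22.8 CPM in P14 KO. At P90 it was 8.05, 8.59 and 9.97 CPM in CTRL and 10.2, 12.5 and 13.6 CPM in KO. KO samples lay above CTRL samples at both stages, by a wider margin at P14. Tgfb3 was up-regulated in neonatal KO by 1.25 ± 0.21 on the log2 scale (edgeR, adjusted p = 0.0153), a call that was lost when any 1 of the 3 P14 KO samples was left out (adjusted p = 0.0598 to 0.0678). The adult log2 fold change was 0.45 ± 0.16, with an unadjusted p = 0.0163 and an adjusted p = 0.208.

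Tgfb1, at chr7:25687002-25704996 (plus strand), was 7.65, 5.05 and 5.79 CPM in P14 CTRL and 5.48, 7.04 and 5.31 CPM in P14 KO. At P90 it was 7.01, 5.87 and 6.17 CPM in CTRL and 8.92, 6.87 and 6.59 CPM in KO. The 4 groups overlapped throughout. The log2 fold change was −0.06 ± 0.23 (edgeR, adjusted p = 0.911) in neonatal and 0.23 ± 0.18 (adjusted p = 0.570) in adult KO. The neonatal value changes sign when libraries are scaled to total counts (0.15, adjusted p = 0.712), so Tgfb1 has no direction here.

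**Figure D1:**
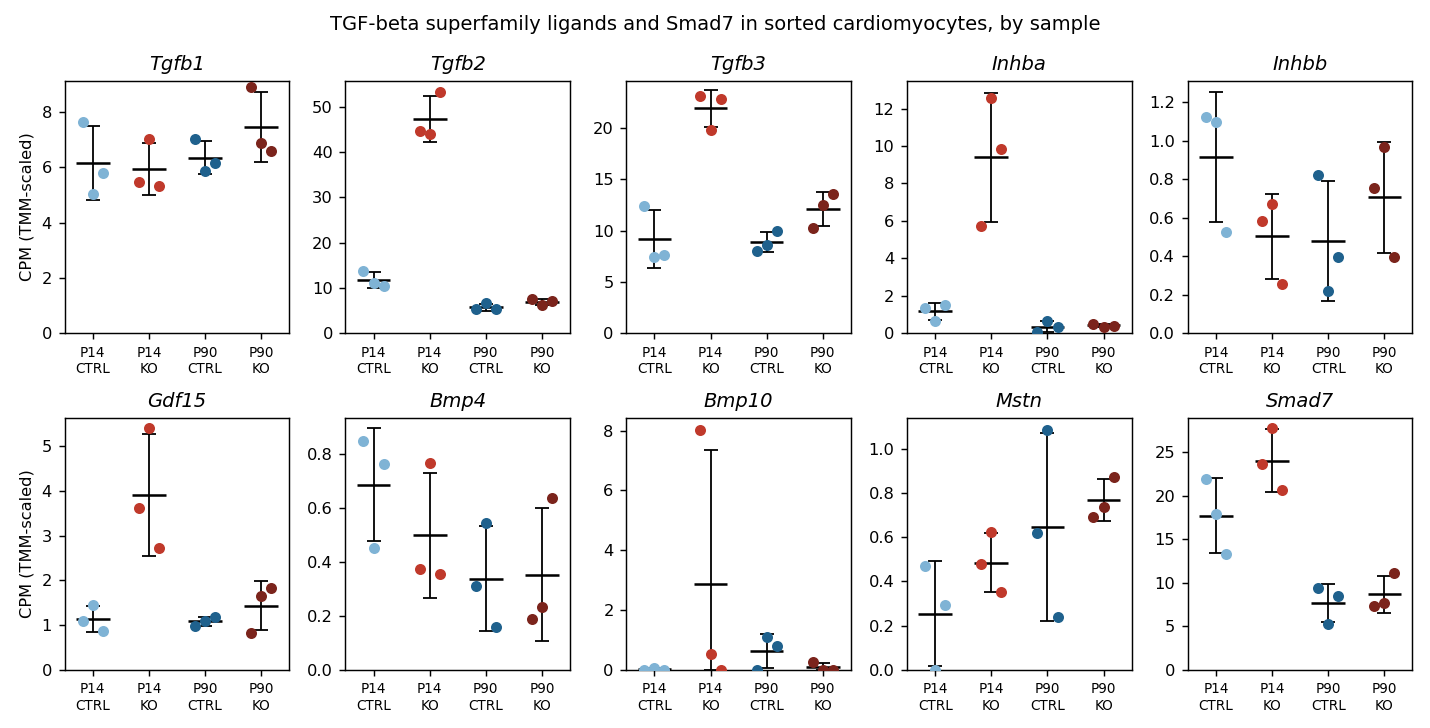
TMM-scaled CPM (y axis, linear, from 0, a scale of its own for each gene) of the 10 members in P14 CTRL, P14 KO, P90 CTRL and P90 KO (x axis). Points are samples, long bars are means and whiskers are SD (n = 3), not drawn below 0. For Tgfb2, Tgfb3, Inhba and Gdf15 every P14 KO point lies above every P14 CTRL point. How many of all genes separate in this way was not counted. For Bmp10 the P14 KO mean comes mainly from 1 sample at 8.03 CPM.

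Levels of different genes were set side by side as CPM per kb of exon. In P14 CTRL the isoforms were close to each other, with 2.94 ± 0.64 (SD, n = 3) for Tgfb1, 2.70 ± 0.83 for Tgfb3 and 2.496 ± 0.38 for Tgfb2, differences smaller than their spread. In P14 KO, Tgfb2 reached 10.02 ± 1.10 CPM per kb, Tgfb3 6.48 ± 0.53 and Tgfb1 2.84 ± 0.46, and their ranges were apart. In P90 CTRL the means stood in the same order as in P14 CTRL. Tgfb1 was at 3.03 ± 0.28, Tgfb3 at 2.62 ± 0.29 and Tgfb2 at 1.21 ± 0.16 CPM per kb, the ranges of Tgfb1 and Tgfb3 overlapping. Of the summed RNA of the 3 isoforms per kb, Tgfb2 made up 28.5%, 33.8% and 30.6% in P14 CTRL and 50.1%, 50.2% and 54.9% in P14 KO. At P90 its share was 16.5%, 20.8% and 15.8% in CTRL and 17.8%, 15.9% and 17.4% in KO. Tgfb2 was thus the leading isoform in P14 KO CMs, and the least of the 3 at P90 in either genotype. The share of Tgfb1 was 36.2% ± 1.8 in P14 CTRL and 14.7% ± 3.01 in P14 KO (SD, n = 3), while that of Tgfb3 was 32.8% ± 2.57 and 33.5% ± 2.33. The sum over the isoforms was 10.2, 6.95 and 7.25 CPM per kb in P14 CTRL and 18.9, 18.5 and 20.6 in P14 KO, while the P90 samples lay at 6.74 to 7 (CTRL) and at 8.29 to 8.87 (KO).

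**Figure D2:**
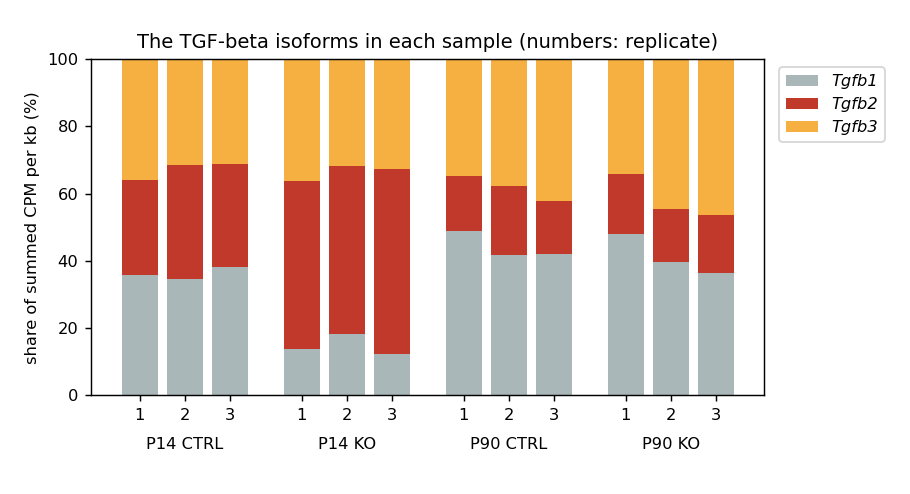
Share of Tgfb1, Tgfb2 and Tgfb3 (percent of their summed CPM per kb of exon, y axis from 0) in each sample. Each sample is a stacked bar, samples are ordered by group (x axis), and digits are replicate numbers. Tgfb2 holds 50.1% to 54.9% in P14 KO, above the 28.5% to 33.8% of P14 CTRL, and 15.8% to 20.8% at P90.

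Among the activin subunits, Inhba encodes the beta A chain, whose homodimer is activin A. Inhba (chr13:16014475-16027211, plus strand) was 1.31, 0.650 and 1.52 CPM in P14 CTRL and 5.75, 12.6 and 9.85 CPM in P14 KO. At P90 it was 0.0516, 0.652 and 0.316 CPM in CTRL and 0.503, 0.323 and 0.397 CPM in KO, from 1 to 8 counts per library. Every P14 KO sample lay above all the others, and the P90 levels were near the floor. The neonatal log2 fold change was 3.01 ± 0.40, or 8.07-fold, given as a description because Inhba was picked for it. On the per-kb scale Inhba was 0.760 ± 0.298 in P14 CTRL and 6.14 ± 2.25 in P14 KO (SD, n = 3), close to Tgfb3. At P90 Inhba had too few counts to be tested.
Inhbb (beta B chain, chr1:119415465-119422248, minus strand) was 1.13, 1.10 and 0.527 CPM in P14 CTRL and 0.585, 0.670 and 0.253 CPM in P14 KO. At P90 it lay between 0.217 and 0.969 CPM, and the groups overlapped at both stages. Its log2 fold change was −0.87 ± 0.49 (edgeR, adjusted p = 0.315) in neonatal and 0.46 ± 0.52 (adjusted p = 0.706) in adult KO.

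Gdf15 encodes a stress-induced cytokine that signals in the hindbrain through the receptor Gfral. Gdf15 (chr8:70629394-70631635, minus strand) was 1.08, 1.45 and 0.878 CPM in P14 CTRL and 3.62, 5.41 and 2.73 CPM in P14 KO. At P90 it was 0.980, 1.09 and 1.19 CPM in CTRL and 0.817, 1.66 and 1.83 CPM in KO. KO samples were above CTRL samples at P14, and the groups overlapped at P90. Gdf15 was up-regulated in neonatal KO by 1.77 ± 0.36 on the log2 scale, or 3.41-fold (edgeR, adjusted p = 0.0242). The call was lost without P14 CTRL replicate 1 or 3 or without any 1 of the P14 KO samples (adjusted p = 0.0501 to 0.0948). The adult log2 fold change was 0.41 ± 0.37 (adjusted p = 0.626).

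Bmp4, Bmp10 and Mstn stood near the floor in most samples. Bmp4 (chr14:46383520-46390599, minus strand) had 7 to 18 counts per P14 library and 2 to 8 per P90 library, with overlapping groups, and its neonatal log2 fold change was −0.45 ± 0.48 (edgeR, adjusted p = 0.617). Its exons share 87 bases with Gm15217 on the opposite strand, and the strand setting of the counting is not stated. Mstn, a brake on muscle growth (chr1:53061663-53068079, plus strand), had 0 to 16 counts per library, and its adult log2 fold change was 0.31 ± 0.49 (adjusted p = 0.798). Bmp10 (chr6:87429002-87434512, plus strand), a ligand made mainly by atrial CMs in the grown heart, had 0, 1 and 0 counts in P14 CTRL and 151, 11 and 0 counts in P14 KO. At P90 it had 0, 10 and 10 counts in CTRL and 4, 0 and 0 in KO. The neonatal difference therefore rested on KO replicate 1, at 8.03 CPM, and the filter on low counts kept Bmp10 out of the test within either stage. With no such filter Bmp10 was called in neonatal KO (edgeR, adjusted p = 0.0195), and 2 of 7 alternatives that could test it there called it.

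Atrial marker genes are given beside Bmp10. Per the study's methods CMs were taken from the apex of the digested heart, a step that would leave most atrial tissue behind, and Myl7 and Myl4 are also known as isoforms of immature ventricular CMs. Sln, an atrial regulator of the calcium pump, was 14.5, 3.02 and 0 CPM in P14 KO replicates 1, 2 and 3, and 0.0585 to 0.650 CPM in P14 CTRL. Myl7, the atrial light chain, was 24.1, 8.95 and 0.0505 CPM in the same KO samples. In P14 KO both followed the same order as Bmp10. At P90 they did not: Sln was highest in KO replicate 1, at 62.1 CPM, where Bmp10 was 0.251 CPM, while CTRL replicates 2 and 3, with Sln at 11.7 and 23.7 CPM, held Bmp10 at 1.09 and 0.791 CPM. The sum over the marker list (Sln, Myl7, Myl4, Nppa, Dkk3, Nr2f1 and Nr2f2), most of it from Nppa, was 59.5 to 506 CPM in P14 CTRL. In P14 KO replicates 1, 2 and 3 it was 779, 1187 and 307 CPM. The sum was thus highest in replicate 2, whereas Bmp10 (8.03, 0.526 and 0 CPM) was highest in replicate 1. Of 6 tested markers 5 had a fold change above 0 in neonatal KO (median 1.88 on the log2 scale). Of these 6, edgeR called 1, Myl4, and DESeq2 called 2, with 4 at an unadjusted p under 0.05. The part of atrial cells in the Bmp10 counts was not tested.

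**Figure D3:**
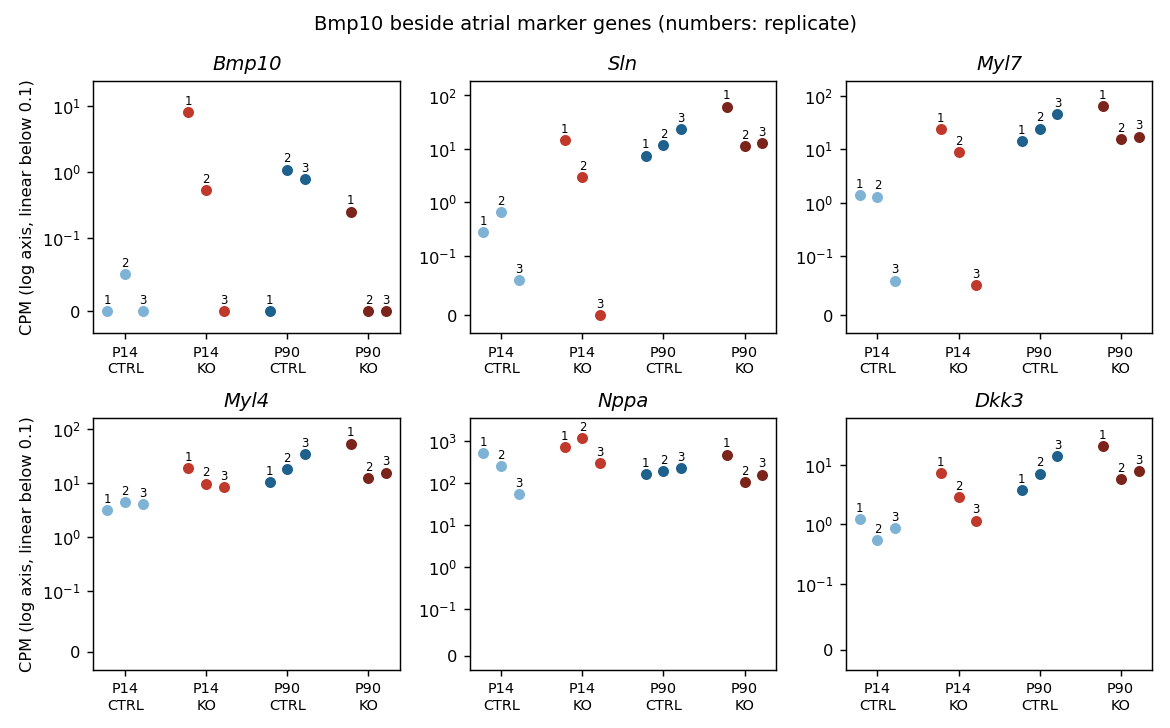
CPM (y axis, logarithmic above 0.1 and linear below) of Bmp10 and of the atrial markers Sln, Myl7, Myl4, Nppa and Dkk3 in each sample; digits are replicate numbers. In P14 KO Bmp10, Sln and Myl7 are highest in replicate 1 and lowest in replicate 3, and at P90 the sample with the most Sln, KO replicate 1, is not the one with the most Bmp10.

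Smad7 lies on chromosome 18 (75367365 to 75395934, plus strand). It was 21.97, 17.9 and 13.3 CPM in P14 CTRL and 23.6, 27.9 and 20.6 CPM in P14 KO. At P90 it was 9.44, 5.22 and 8.47 CPM in CTRL and 7.29, 7.66 and 11.1 CPM in KO. The genotypes overlapped at each age, whereas every P14 sample exceeded every P90 sample. Its log2 fold change was 0.43 ± 0.20 (edgeR, adjusted p = 0.211) in neonatal and 0.14 ± 0.23 (adjusted p = 0.812) in adult KO.

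Leaving Inhba aside, 7 members had enough counts to be tested in the neonatal model, and 3 of them (Tgfb2, Tgfb3 and Gdf15) were called higher and 0 lower in KO. Of all 12546 genes tested there, 8.59% were called, 501 higher and 577 lower. The median log2 fold change was 0.84 over these members together with Inhba and 0.00 over all genes; since the members were picked with these results known, the count is a description. Under scaling to total counts the median of all genes rose by 0.215 in neonatal KO and 81.5% of calls were upward, against 46.5% with TMM, and Tgfb2, Tgfb3 and Gdf15 were again called. In the adult model 7 members were tested by edgeR and 0 were called, 1 (Tgfb3) at an unadjusted p under 0.05, against 0.39% of 11808 genes called. DESeq2 also called 0 of them, but gave no adjusted p for Inhbb, Gdf15 and Mstn. All 7 adult fold changes were above 0 (median 0.31, against 0.01 over all genes). The summed endothelial markers were 256 to 526 CPM in P14 CTRL and 293 to 443 in P14 KO, and 0 of 8 endothelial and 0 of 7 fibroblast markers tested were called in neonatal KO by edgeR, with 0 at an unadjusted p under 0.05 and 0 by DESeq2. Summed smooth muscle and pericyte markers, most of them Acta2, were 946 to 1412 CPM in P14 CTRL and 375 to 585 in P14 KO, and of 6 tested Cspg4 was called higher and Acta2 lower. Summed macrophage and leukocyte markers were 4.45 to 7.47 CPM in P14 CTRL and 7.34 to 9.86 in P14 KO, and the 4 tested had fold changes above 0, with 0 called by edgeR or DESeq2 and 1 at an unadjusted p under 0.05. The part of such cells in the ligand changes was not tested. In bulk RNA, fewer cells of a type and less RNA per cell cannot be told apart.

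**Figure D4:**
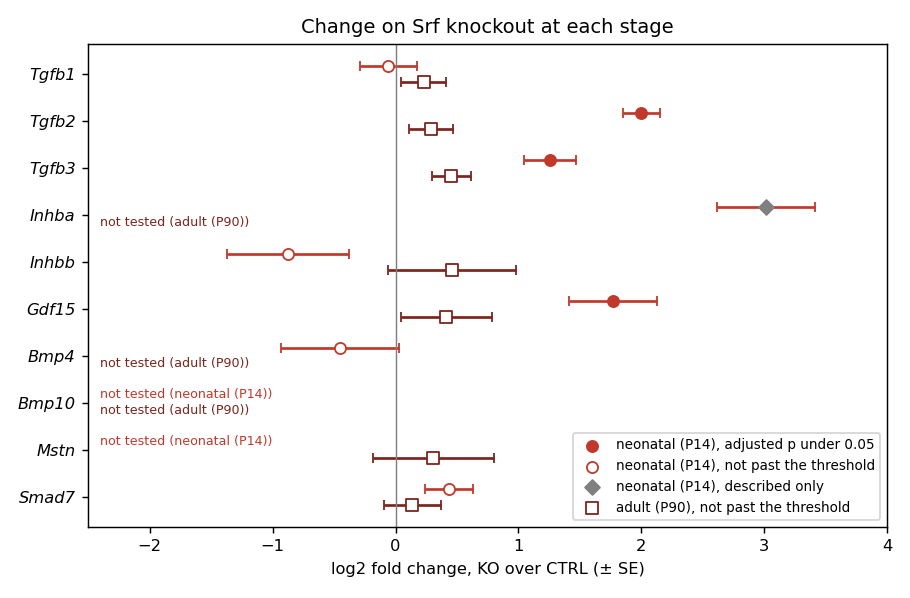
Log2 fold change of KO over CTRL with its SE (x axis) for each member (y axis) at P14 (circles, filled where the adjusted p is under 0.05; a grey diamond for Inhba, which is described only) and at P90 (squares). The filled circles are Tgfb2 at 2.0, Tgfb3 at 1.25 and Gdf15 at 1.77, the diamond lies at 3.01, and members with too few counts are written as not tested.

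An interaction term over the 12 samples asked whether the KO effect differed between the stages. The neonatal minus the adult log2 fold change of Tgfb2 was 1.72 ± 0.22 (edgeR interaction, adjusted p = 0.00915), and 1.78% of 12841 genes were called in this comparison. Of the other members, Tgfb3 differed by 0.81 ± 0.27 (adjusted p = 0.137) and Gdf15 by 1.37 ± 0.52 (adjusted p = 0.178). Inhba differed by 2.52 ± 0.89, given as a description because this value holds the neonatal change it was picked for. Leaving Inhba aside, a stage difference was thus called for Tgfb2 and for no other member. Bmp10 did not pass either (adjusted p = 0.109), and passed when genes with low counts were kept in the test (adjusted p = 0.0169). Stage cannot be told apart from any difference in handling between the neonatal and adult experiments.

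The ages were compared in CTRL CMs, which share their samples with the KO comparisons. Tgfb2 was lower at P90 than at P14 by 1.05 ± 0.20 on the log2 scale (edgeR, log2 fold change −1.05, adjusted p = 0.00503), a fold of 0.484, and Smad7 was lower by a similar amount (−1.18 ± 0.26, adjusted p = 0.00948). The groups did not overlap for either. These were 2 of the 7 members tested, and 29.3% of 12294 genes were called in this comparison. Inhba differed by −1.97 ± 0.70 (adjusted p = 0.0629), while Tgfb1, Tgfb3 and Gdf15 had log2 fold changes of 0.05, −0.05 and −0.08 (adjusted p = 0.893 for each), with SE of 0.23, 0.24 and 0.36. Over the same interval 5 of 7 fibroblast markers (median −1.96 on the log2 scale) and 5 of 8 endothelial markers (median −0.77) were called lower in P90 CTRL. Of 6 smooth muscle and pericyte markers 2 were called lower, and 0 of 4 macrophage and leukocyte markers were called. Atrial markers went the other way, with 4 of 6 called higher and 1 lower (median 2.82). The part of such cells in the lower Tgfb2 and Smad7 was not tested. With total-count scaling the median of all genes moved by −0.113 and 35.7% of calls were upward, against 49.3% with TMM. Tgfb2 in adult CMs of either genotype therefore stood below its level in neonatal CTRL CMs, and KO at P14 stood above it.

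The remaining genes of the pathway were taken from lists of known components, and every listed gene was counted whichever way it moved. Over all genes tested, 8.59% were called in neonatal KO and 0.39% in adult KO. No list was tested against those shares. Of 24 other ligands, 6 had enough counts in the neonatal model and 3 in the adult one, and 0 were called in either by edgeR or DESeq2 (1 and 0 at an unadjusted p under 0.05). The most abundant of them was Inha, which encodes the inhibin alpha chain, at 6.94 CPM per kb in P14 CTRL and 6.27 in P14 KO (log2 fold change −0.15, adjusted p = 0.700). Bmp6 and Bmp7 stood at 2.14 and 1.8 CPM per kb in P14 CTRL, close to the TGF-beta isoforms, with neonatal log2 fold changes of 0.17 (adjusted p = 0.877) and −0.60 (adjusted p = 0.307).

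Among receptors, 11 of 16 were tested at each stage, and Tgfbr1, the type I receptor of TGF-beta, was the 1 called in neonatal KO. This 1 of 11 is near the 8.59% called over all genes. Tgfbr1 was 23.6, 27.1 and 20.5 CPM in P14 CTRL and 40.5, 33.1 and 34.4 CPM in P14 KO, without overlap (0.60 ± 0.14 on the log2 scale, edgeR adjusted p = 0.0405). In the adult model 0 of 11 were called by edgeR or DESeq2, and 1 had an unadjusted p under 0.05. The BMP type I receptor Bmpr1a was the most abundant receptor, at 40.2 CPM per kb in P14 CTRL and 47.7 in P14 KO (adjusted p = 0.202). Gfral, the receptor of Gdf15, was at most 0.0725 CPM per kb in any group mean. All 6 signalling Smads were tested, and 0 were called in either KO comparison by edgeR or DESeq2 (1 in neonatal and 2 in adult KO at an unadjusted p under 0.05). Smad4 was the most abundant, at 27.6 CPM per kb in P14 CTRL and 27.0 in P14 KO.

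Inhibitors inside the cell followed. Of 11 tested, 2 were called higher and 0 lower in neonatal KO, and 0 of 10 in adult KO by edgeR or DESeq2 (2 at an unadjusted p under 0.05). Bambi, a decoy receptor without a kinase domain, was 33.9, 21.8 and 34.9 CPM in P14 CTRL and 50.5, 66.7 and 92.4 CPM in P14 KO (1.21 ± 0.25 on the log2 scale, edgeR adjusted p = 0.0249). Nedd4l, a ubiquitin ligase that can act on Smads and on ion channels, was 56.7, 48.6 and 53.9 CPM in P14 CTRL and 76.5, 74.6 and 80.4 CPM in P14 KO (0.54 ± 0.10, adjusted p = 0.0209). Both were higher in every KO sample than in any CTRL sample at P14. The effect on Nedd4l differed between the stages by 0.68 on the log2 scale (edgeR interaction, adjusted p = 0.0235).

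Among 20 extracellular antagonists and latency proteins 11 were tested, of which 2 were called higher and 0 lower in neonatal KO and 0 in adult KO by edgeR or DESeq2 (1 at an unadjusted p under 0.05). Fstl3, a secreted protein that binds activins and myostatin, was 1.27, 0.950 and 0.644 CPM in P14 CTRL and 2.87, 3.40 and 2.83 CPM in P14 KO (1.65 ± 0.33, edgeR adjusted p = 0.0241). Its exons share 1157 bases with Prss57 on the opposite strand, so its counts are uncertain. Ltbp3, which binds latent TGF-beta in the matrix, was 47.4, 36.2 and 45.2 CPM in P14 CTRL and 65.8, 70.5 and 71.9 CPM in P14 KO (0.69 ± 0.12, adjusted p = 0.0180), and its effect differed between the stages by 0.70 (interaction, adjusted p = 0.0454). Of 8 proteases and activators tested, 2 were called higher in neonatal KO: Furin, the convertase that cleaves the propeptides of these ligands, by 0.66 ± 0.14 (adjusted p = 0.0280), and Bmp1, a metalloprotease that is not a BMP, by 0.62 ± 0.14 (adjusted p = 0.0348). In adult KO 0 of 8 were called by edgeR or DESeq2, with 0 at an unadjusted p under 0.05.

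Target genes of the pathway were then counted in the same CMs. Of 15 genes known as TGF-beta or activin targets, 0 were called higher and 1 lower in neonatal KO by edgeR. Of their log2 fold changes 13 were above 0 and 2 below (median 0.19), and 4 had an unadjusted p under 0.05. In adult KO 0 of 14 were called by edgeR or DESeq2 (3 at an unadjusted p under 0.05), with 9 fold changes above 0 and 5 below. The gene called lower in neonatal KO was Acta2, smooth muscle actin, which is also a known target of SRF. Acta2 was 1137, 1334 and 795 CPM in P14 CTRL and 382, 329 and 184 CPM in P14 KO (−1.87 ± 0.29, adjusted p = 0.0128). Of 9 BMP targets, 1 was called in neonatal KO, Bambi, which also stands among the inhibitors, and the median was 0.01. Of all genes tested there, 8.59% were called. In adult KO 0 of 9 were called by edgeR, 2 by DESeq2 and 4 at an unadjusted p under 0.05, with all 9 log2 fold changes above 0 and a median of 0.33. Most target genes, like most genes tested, were thus not called in neonatal KO CMs, in which 3 ligands and Inhba were higher. In CTRL CMs 7 of 15 TGF-beta and activin targets and 5 of 9 BMP targets were called lower at P90 than at P14. Among them were collagen genes that also mark fibroblasts. Of all genes tested between the CTRL ages, 14.9% were called lower.

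The integrated stress response, a translation-linked programme run by Atf4 that is known to induce Gdf15, was listed for comparison. Of 12 genes tested in neonatal KO 1 was called, near the 8.59% called over all genes. This was Atf3, a transcription factor of the response, higher by 1.17 ± 0.26 (edgeR, adjusted p = 0.0302). Of the 12 fold changes 11 were above 0 (median 0.42). Atf3 was about as far from CTRL in adult KO, where it did not pass the test (1.31 ± 0.49, adjusted p = 0.229), and its effect did not pass as different between the stages (interaction −0.14 ± 0.68, adjusted p = 0.943). Atf4 itself had a log2 fold change of 0.17 (adjusted p = 0.680). In adult KO 1 of 11 was called, Asns, asparagine synthetase, lower by 1.61 ± 0.28 (log2 fold change −1.61, adjusted p = 0.0428).

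**Figure D5:**
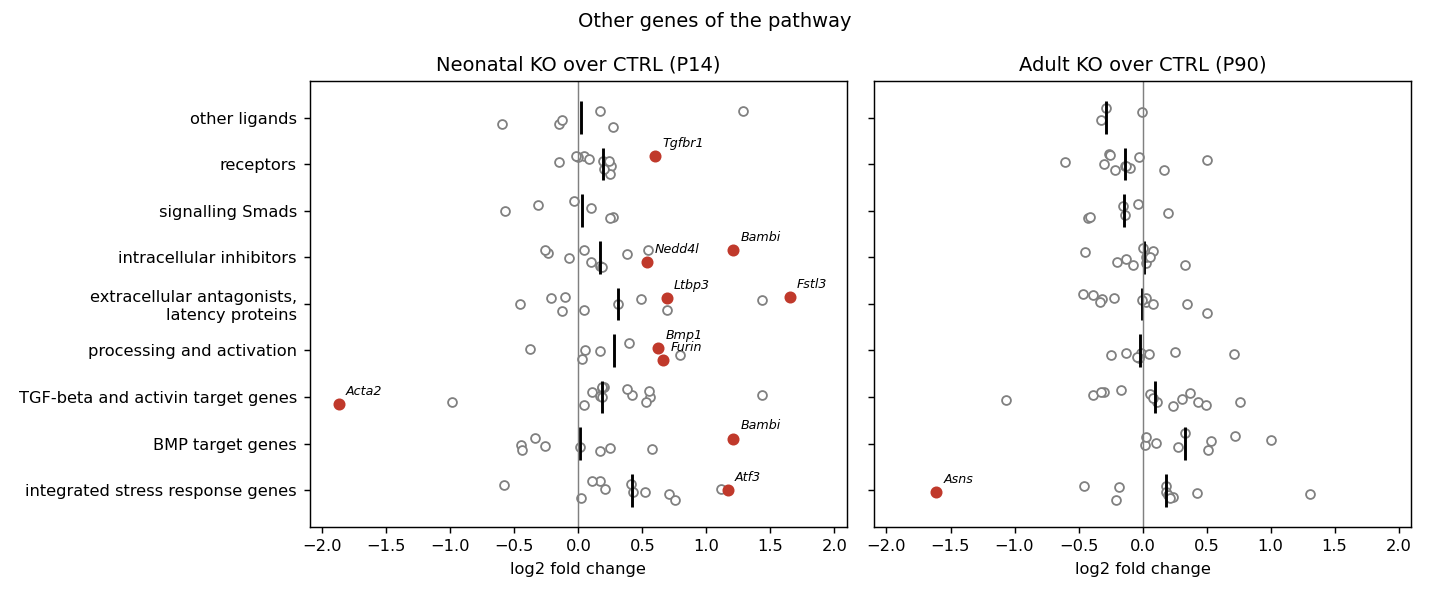
Log2 fold change of KO over CTRL (x axis) for each tested gene of the pathway lists (y axis) at P14 (left) and P90 (right); black lines are list medians and filled red points have an adjusted p under 0.05. At P14 filled points above 0 are Tgfbr1, Bambi (in both of its lists), Nedd4l, Fstl3, Ltbp3, Bmp1, Furin and Atf3, and Acta2 lies at −1.87; at P90 the filled point is Asns at −1.61.

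The genes whose pattern over the 12 samples was most like that of Tgfb2, Tgfb3, Inhba or Gdf15 were ranked by Pearson's r of log2 CPM, as a description, since the samples share stage and genotype. Tgfb2 was closest to Anxa5 (r = 0.988), Rtn4 (0.984) and Ext1 (0.982). Tgfb3 was closest to Nlrc3 (0.974), Mfge8 (0.964) and Rasa3 (0.951). Inhba was closest to Itga10 and Prss23 (0.973 each) and Abhd2 (0.971). Gdf15 was closest to Golim4 (0.942), Mapk12 (0.934) and Ankrd13c (0.931). No gene was shared between these lists.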

How the data were processed

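RNA was sequenced from flow-sorted CMs, with cDNA amplified by SMART-Seq v4 and Nextera XT libraries read from one end. The authors aligned reads to mm10 and deposited raw counts per gene, not normalized, in a table for each stage; the submitters' processing notes name CASAVA 1.8, STAR 2.5.3a, Subread 1.5.2 and featureCounts. Strand setting and treatment of multi-mapping reads are not given in the sources used here. Samples were grouped by title. Animals behind samples are not described further, so p-values measure the spread between these samples.

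The test was edgeR 4.0.16 (with limma 3.58.1, under R 4.3.3). Genes passed filterByExpr, libraries were scaled by TMM, and the quasi-likelihood F-test was adjusted by Benjamini-Hochberg over all genes tested, at 0.05. KO and CTRL were compared within each stage, the interaction in all 12 samples, and ages in the 6 CTRL samples. DESeq2 1.42.0 and the other alternatives are given at the end. DESeq2 gave no adjusted p for some genes that edgeR tested, among them Smad9, Ltbp2 and Thbs1 in adult KO. Such genes were counted as not called by DESeq2. Total-count scaling was added after seeing the data. The fits were tested on simulated data. Each SE is the log2 fold change over the root of F. The displayed CPM use factors from all 12 samples; correlations use log2 CPM with a prior count of 2. The floor of 3 counts covers counting error only, since amplified reads carry no molecular identifiers. Statements that groups do not overlap are descriptions. With 3 samples against 3 the smallest two-sided p of an exact permutation test is 0.1. The share of all genes without overlap was not counted.

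Named were the 10 members, Srf, genes of the lists called in a KO comparison or the interaction (at most 4 per list), the 3 closest genes of Tgfb2, Tgfb3, Inhba and Gdf15 and markers of other cell types; Inha, Bmp6, Bmp7, Bmpr1a, Gfral, Smad4 and Atf4 were added after their values were seen. Members and lists were chosen with earlier results of these data known. Lists share Bambi, Smad6, Pmepa1, Skil, Tgif1 and Ltbp2, and Acta2, Col1a1, Col3a1 and Postn are also cell type markers. Ldlrad4 and Adgre1 were not found by symbol.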

Additional observations from a re-analysis of the deposited data

Results flagged for a closer look

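A KO effect that differed between the stages in the interaction test was found for 3 of the genes named: Tgfb2 (neonatal minus adult log2 fold change 1.72), Nedd4l (0.68) and Ltbp3 (0.70). With 3 samples per group no search for single samples far from the others was made.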

How the results depend on the processing

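Counts of all genes called depended on the processing more than the members did; the cause was not tested. In neonatal KO (1078 genes called) DESeq2 called 1787, the contrast from all 12 samples 2088 and total-count scaling 1724. In adult KO (46) DESeq2 called 312, the unfiltered test 701, the replicate block 655 and the 12-sample contrast 3. In the interaction (228) DESeq2 called 894, the unfiltered test 474 and the replicate block 687, and 2 members were called without the filter, Tgfb2 and Bmp10. Between CTRL ages 4 members were called without the filter, against 2. Leaving out 1 sample gave 111 to 1004 genes in neonatal KO and 6 to 51 in adult KO. It gave 4 to 377 in the interaction and 2067 to 4768 between CTRL ages. In these fits 1 to 2 members passed in the interaction, and Tgfb2 passed in neonatal KO each time. Tgfb2 kept its neonatal, interaction and age calls and Smad7 its age call under every alternative run. Srf in neonatal KO passed with DESeq2 (adjusted p = 0.00224), without the filter (0.0129), with the block (0.0220), in the 12-sample fit (0.00999) and without P14 KO replicate 3 (0.0474).

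Small fold changes changed sign. Under total-count scaling Tgfb1 was 0.15 in neonatal KO and −0.074 between CTRL ages. With 1 sample left out, the log2 fold change of Tgfb1 ranged from −0.18 to 0.12 in neonatal KO, Mstn from −0.070 to 0.73 and Smad7 from −0.072 to 0.31 in adult KO, and Bmp4 from −0.95 to 0.14 in the interaction. Between CTRL ages Tgfb1 ranged from −0.094 to 0.25, Tgfb3 from −0.20 to 0.25 and Gdf15 from −0.22 to 0.12.

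At P14, same-numbered KO and CTRL samples deviated from their group means with correlations of 0.0470, 0.148 and 0.360. Differently numbered ones gave −0.241 to 0.151. At P90 the same-numbered values were 0.181, −0.000342 and 0.0540, against −0.253 to 0.173. With so few samples these values do not settle whether the numbers pair KO with CTRL. With the number as a block, 1529 genes were called in neonatal KO and 3139 between CTRL ages. The members then called were Tgfb2, Tgfb3 and Gdf15 in neonatal KO, Inhba left aside, and 0 in adult KO. In the interaction 1 member was called, and between CTRL ages 2. Under total-count scaling the mean of Tgfb2 in P14 KO was 54.6 CPM and that of Tgfb3 25.3 CPM. Bmp4, Bmp10, Mstn and P90 Inhba gave few counts at these depths, which limits the changes that could be detected.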
